A study of Mus musculus with 2 samples.

Results

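The data described here are FoxO3 binding sites at Cdkn1a, Cdkn1b and Gadd45a, 3 mouse genes known as FoxO targets with roles in leaving the cell cycle. The sites are the listed peaks, in mm9 coordinates, whose summit lay in a gene or within 50 kb of it: 33 of the 45958 peaks in both lists together. The myotube list gave 33 of its 45457 peaks, and the myoblast list 0 of its 501. The gene spans came with the selection rule, rounded to 100 bp: chromosome 17 from 29227900 to 29237700 (Cdkn1a, plus strand), chromosome 6 from 134870400 to 134875500 (Cdkn1b, plus strand) and chromosome 6 from 66985000 to 66987500 (Gadd45a, minus strand). FoxO3 was measured by chromatin immunoprecipitation and sequencing (ChIP-seq) with an anti-Foxo3 antibody in C2C12, an established mouse line of muscle precursor cells. The labels place the myoblast library at hour -24, counted from the change to differentiation medium, and the myotube library at hour 72. In that medium a low level of horse serum replaces fetal bovine serum. Each group is 1 library of 1 line, and the source label of both reads C2C12 myoblasts, so the groups are told apart by the hour in the labels. Peak lists carry no marker expression against which the cell state could be checked.

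FoxO factors are forkhead transcription factors that insulin and growth factor signalling keeps out of the nucleus through Akt. When that signal falls they enter the nucleus and bind DNA at a short core, AAACA. Myoblasts stop dividing before they fuse, and cyclin-dependent kinase inhibitors hold them in that arrested state. Cdkn1a encodes p21 and Cdkn1b encodes p27, both inhibitors of cyclin-dependent kinases, and Gadd45a encodes a stress-induced protein linked to growth arrest and DNA repair.

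Promoter sequence of each gene is shown because the peaks bear on it in different ways. A peak lay over the rounded start of Gadd45a, and another at a matching distance from an internal start of Cdkn1a. No peak was listed within 20 kb of the Cdkn1b start. Each sequence is the 250 bases before a start in RefSeq on GRCm38.p6. That is a later build than the mm9 of the peaks, so these coordinates cannot be set beside those of the peaks. Capitals mark every match, on either strand, to the FoxO core AAACA or to the E-box CANNTG, the motif bound by MyoD and related factors.
Gadd45a (chr6:67037408-67037657, minus strand): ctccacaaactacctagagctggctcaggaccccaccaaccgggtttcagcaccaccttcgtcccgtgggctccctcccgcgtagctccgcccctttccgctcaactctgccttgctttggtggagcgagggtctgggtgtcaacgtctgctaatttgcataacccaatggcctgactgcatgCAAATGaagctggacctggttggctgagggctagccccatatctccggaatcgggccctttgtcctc
Cdkn1a, internal start (chr17:29093519-29093768, plus strand): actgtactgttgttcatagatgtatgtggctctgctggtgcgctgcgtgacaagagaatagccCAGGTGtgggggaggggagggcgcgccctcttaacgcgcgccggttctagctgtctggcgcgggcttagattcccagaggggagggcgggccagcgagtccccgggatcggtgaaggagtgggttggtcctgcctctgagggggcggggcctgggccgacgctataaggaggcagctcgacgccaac
Cdkn1b (chr6:134920151-134920400, plus strand): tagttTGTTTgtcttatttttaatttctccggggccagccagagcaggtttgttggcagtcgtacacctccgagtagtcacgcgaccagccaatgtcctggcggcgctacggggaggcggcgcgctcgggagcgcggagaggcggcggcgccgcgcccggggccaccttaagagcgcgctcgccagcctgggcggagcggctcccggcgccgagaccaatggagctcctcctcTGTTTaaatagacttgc
All 3 genes matched RefSeq by symbol, Cdkn1a with 2 starts. The Cdkn1b stretch held 2 matches to AAACA, both as TGTTT, beginning 245 and 17 bases before the start. The Gadd45a stretch and those of both Cdkn1a starts held 0. Of 32851 RefSeq promoter stretches of the same length, 46.4% held at least 1 match to AAACA. The longer forkhead motif GTAAACA, which contains AAACA, matched in 3.17% of them and its extension GTAAACAA in 1.07%, with 0 matches to either in the 4 stretches of these genes. The E-box matched once before the internal Cdkn1a start, as CAGGTG beginning 187 bases before it, and once before Gadd45a, as CAAATG beginning 67 bases before it, against 66.2% of all stretches with at least 1. A match says that the letters are there, and the letters under the peaks themselves were not read.

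Cdkn1a carried most of the sites, Gadd45a the single strongest site, and Cdkn1b the fewest. The myotube list held 21 peaks at Cdkn1a (exact Poisson 95% interval 13.0 to 32.1), 7 at Gadd45a (2.81 to 14.4) and 5 at Cdkn1b (1.62 to 11.7). These intervals cover counting error within 1 library, and neighbouring peaks are not independent, so they are a lower limit on the uncertainty. By position, 1 peak lay within 1 kb of an outer gene start, here called a promoter peak, and 6 lay elsewhere inside a gene. The other 26 (78.8%) lay outside the genes, 15 upstream and 11 downstream. Most of the searched length also lay outside: Cdkn1a, Cdkn1b and Gadd45a take up 9.8, 5.1 and 2.5 kb of windows of 109.8, 105.1 and 102.5 kb. The share outside the genes is therefore no sign of a preference for distal sites. Promoter peaks by the outer start were thus listed at 1 of the 3 genes, and the peak of highest fold at each gene was distal. At Cdkn1a and Cdkn1b, with 0 such promoter peaks, it could only be distal. The stretch within 1 kb of a start is a small part of each window, and the share of all listed peaks at promoters was not computed. Counting the internal Cdkn1a start as well, a setting chosen after seeing the data, gives 1 promoter peak at Cdkn1a. That peak is counted here among the 6 inside a gene. Fold here is the authors' enrichment of the summit over local background. The reads given with it are the pileup recovered from the deposited fold and p-value. Median folds were 10.57 at Cdkn1a, 11.9 at Cdkn1b and 6.19 at Gadd45a, against 8.59 for the myotube list.

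**Figure D1:**
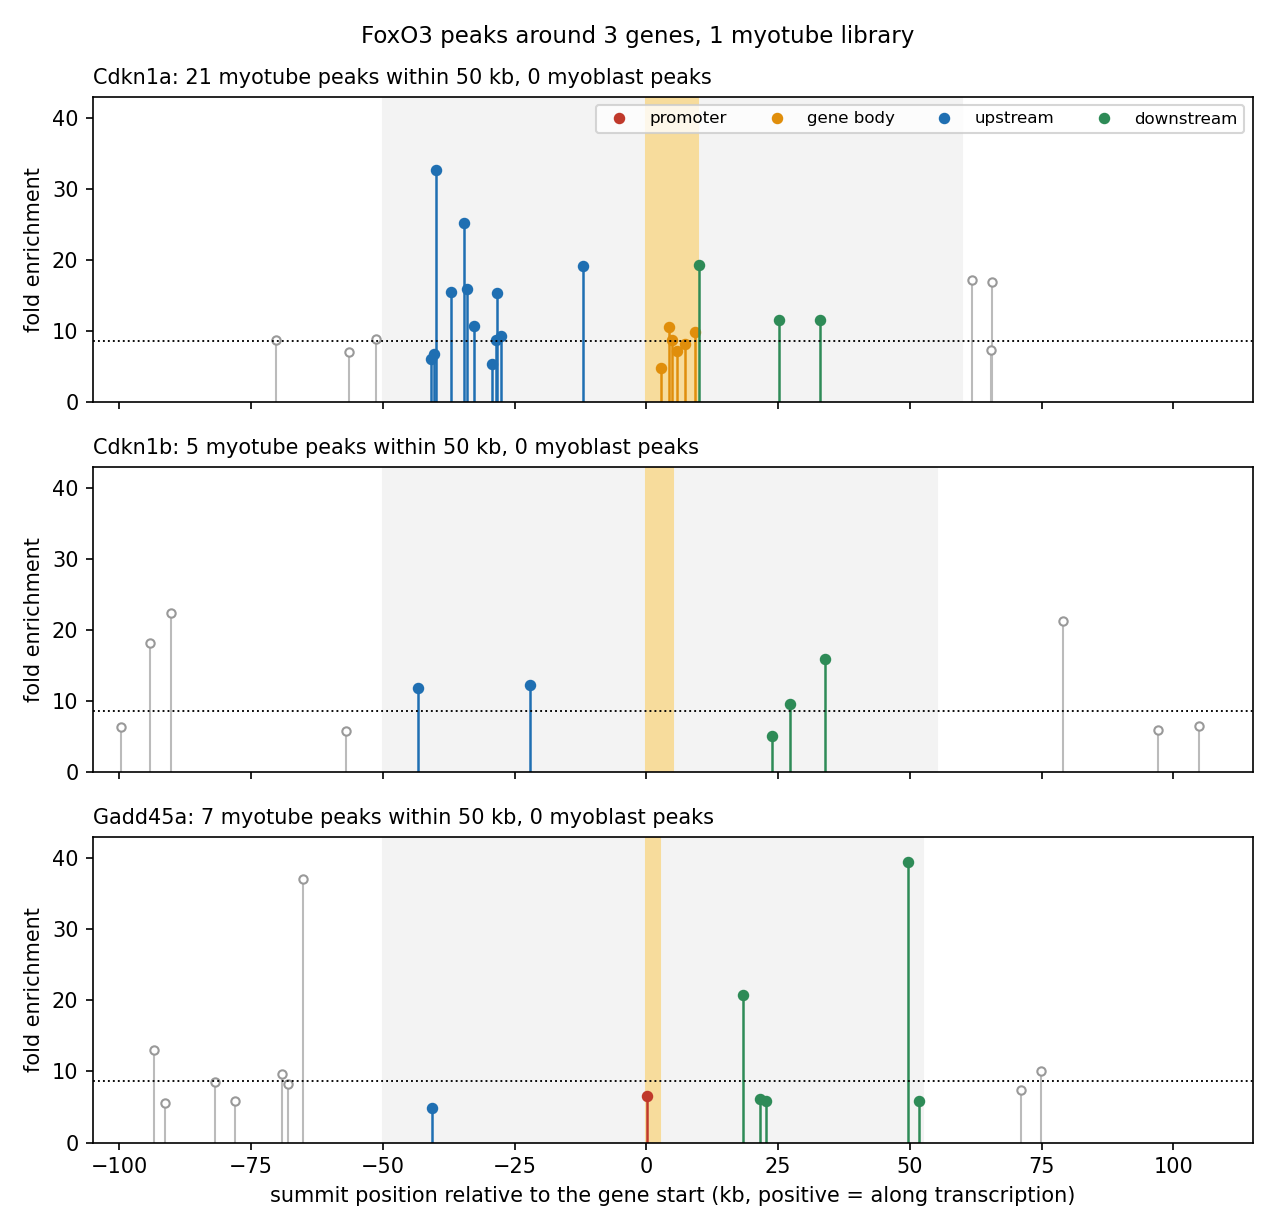
Fold enrichment of each myotube peak (linear axis) against the distance of its summit from the gene start in kb, 1 panel per gene, with the gene shaded yellow and the 50 kb flanks grey. Filled points are the 33 peaks by site, open points lie 50 to 100 kb from the gene, and the dotted line is the myotube list's median fold of 8.59; the highest filled points are at 32.73 (Cdkn1a), 15.95 (Cdkn1b) and 39.39 (Gadd45a), all distal.

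At Cdkn1a most sites lay in an upstream group of 11 peaks, weak and strong, and in a run of 7 along the gene and its end. The first start had no peak within 1 kb. The nearest summits were 11.97 kb upstream and 2847 bp downstream of it. The upstream group had summits between 27.5 and 40.9 kb before the start, at folds from 5.41 to 32.73 (median 10.79). With neighbours joined across gaps of up to 12 kb, it belonged to a run of 13 peaks over 29.4 kb that extended past the 50 kb limit. Its strongest member, spanning 29187783 to 29188230 of chromosome 17, had a fold of 32.73 from 64 reads over a background of 1.955 reads, with a −log10 q-value of 68.19. That fold was higher than 98.6% of the myotube list. The next, from 29193141 to 29193512 and 34.5 kb upstream, had a fold of 25.26 from 51 reads. These were the sites of fold 20 or more at Cdkn1a, and both were wide, at 448 and 372 bp against a list median of 186 bp. A lone peak 11.97 kb upstream, from 29215814 to 29216218, had the next highest upstream fold, 19.17, from 29 reads over 1.513.

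The 6 peaks inside Cdkn1a ranged from 4.83 to 10.57 (median 8.46, close to the list median of 8.59) with 11 to 20 reads each. The 12 upstream peaks ranged from 5.41 to 32.73 (median 13.07) with 10 to 64 reads. The ranges overlap: 7 upstream peaks lay above every peak in the gene, and the other 5 lay between 5.41 and 9.35. No test was made, since these are sites of 1 library. Widths of the gene's peaks ran from 128 to 574 bp, and those of the upstream peaks from 122 to 518 bp, so these ranges overlap too. The 3 widest in the gene had 549, 567 and 574 bp, each wider than at least 98.2% of the list. The peak of 549 bp, from 29230383 to 29230931, had the lowest fold at Cdkn1a, 4.83, from 20 reads over 4.141. That background and the 4.134 of a Cdkn1b peak were the highest of the 33 sites, and rounding of the fold leaves their order undecided. The summit of the 549 bp peak lay 2847 bp after the first start. In RefSeq on GRCm38.p6 the internal Cdkn1a start lies 2790 bp after the first, a difference of 57 bp, if the spacing is the same in mm9. The first start used here is rounded to 100 bp, so a difference of that size is not exact. If the spacing is equal, the 549 bp peak is a peak at the internal promoter, the one whose sequence is shown above. At the other end of the gene, a peak from 29237690 to 29237975 had its summit 93 bp past the rounded gene end. Its fold was 19.34 from 30 reads, and the peak just inside the gene end had 9.91 from 15 reads. Further downstream were 2 peaks of fold 11.6 each, 15.4 and 23.0 kb past the end, from 18 and 24 reads.

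At Cdkn1b all 5 sites were distal. None lay in the gene, and a stretch of 45.9 kb between neighbouring summits, with the gene inside it, had no listed peak. The summits closest to the start were 22.0 kb before and 23.9 kb after it. Upstream, 19 reads and a fold of 12.25 were found on chromosome 6 from 134848274 to 134848475, and a peak 43.4 kb before the start, from 134826953 to 134827119, had 11.9 from 18 reads. Their backgrounds were 1.551 and 1.513 reads, near the most frequent value of the list, 1.51. Downstream, 3 peaks lay within 10.2 kb, with folds of 5.08, 9.67 and 15.95 in order along the chromosome. The last, from 134904027 to 134904425 and 28.7 kb past the gene end, was the strongest Cdkn1b site, with 33 reads over 2.069 and a fold above 89.2% of the list. No Cdkn1b site reached a fold of 20. At a background of 1.51 reads, the weakest peak in the myotube list had 8 reads (fold 5.29), so weaker enrichment at the Cdkn1b promoter would not have been listed.

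Gadd45a was the gene of the 3 with a peak over its outer start as rounded here. The peak on chromosome 6 from 66987421 to 66987663 had its summit 28 bp inside the rounded start, a fold of 6.6 from 15 reads over 2.273, and a −log10 q-value of 5.75. This was a weak site, with a fold above 20.8% of the list. The span used for Gadd45a is 2.5 kb, whereas RefSeq on GRCm38.p6 gives the gene 2312 bp. The distance to the start is therefore good to about 200 bp, and the peak may lie beside the exact start and not over it. The distal sites differed widely among themselves. A peak 47.0 kb past the gene end, from 66937673 to 66938179, had a fold of 39.39 from 82 reads over 2.082 and a −log10 q-value of 94.11. It was the strongest of the 33 sites and held rank 337 of 45457 in the list. A second strong peak lay 15.9 kb past the end, from 66969045 to 66969245, with a fold of 20.79 from 43 reads. The other 3 downstream peaks had folds of 5.8, 5.8 and 6.19, and the single upstream peak, 40.7 kb before the start, had 4.83 from 15 reads. The strong sites were therefore 2 of 7, and the promoter peak was close in fold to the 4 weak distal ones.

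**Figure D2:**
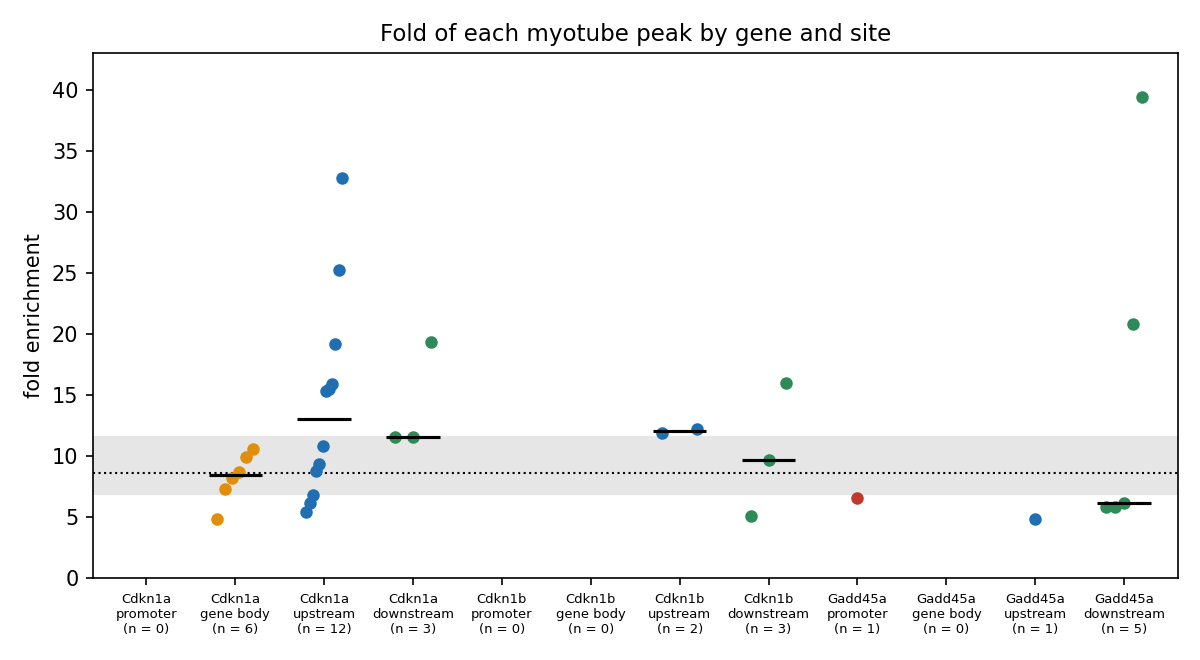
Fold enrichment (linear axis) of each of the 33 myotube peaks by gene and site, with a black bar at the median where there is more than 1 peak; the dotted line and grey band are the median (8.59) and quartiles (6.92 to 11.6) of the whole myotube list. The Cdkn1a gene body (4.83 to 10.57) and the Gadd45a promoter (6.6) lie at or below the upper quartile, while the highest upstream Cdkn1a and downstream Gadd45a peaks lie far above it.

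Over the 3 genes, folds ran from 4.83 to 39.39 with a median of 9.91. A fold of 20 or more was reached by 4 of the 33 sites (12.1%), 2 each at Cdkn1a and Gadd45a, where it was reached by 5.88% of the whole myotube list. A fold above the list median was found for 21 of 33 (63.6%), against 49.9% of the list. Widths above the list median were also found for 21 of 33 (63.6%), against 49.7%. Raised background, meaning over 3 times the list's most frequent value of 1.51 reads, was found at 0 of 33 sites, against 3.58% of the list. That share is so low that 0 among 33 sets these sites little apart, and their highest background was 4.141 reads. In groups of 3 or more joined at 12 kb were 24 of the 33 sites (72.7%), against 50.5% of the list. These shares pool unlike genes, and 21 of the 33 sites come from 1 locus, Cdkn1a. A fold of 20 or more was reached by 2 of 21 sites at Cdkn1a, 0 of 5 at Cdkn1b and 2 of 7 at Gadd45a. Folds above the list median numbered 15 of 21, 4 of 5 and 2 of 7, and widths above it 13, 2 and 6, in the same order. The pooled shares therefore say nothing particular to the 3 genes together.

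**Figure D3:**
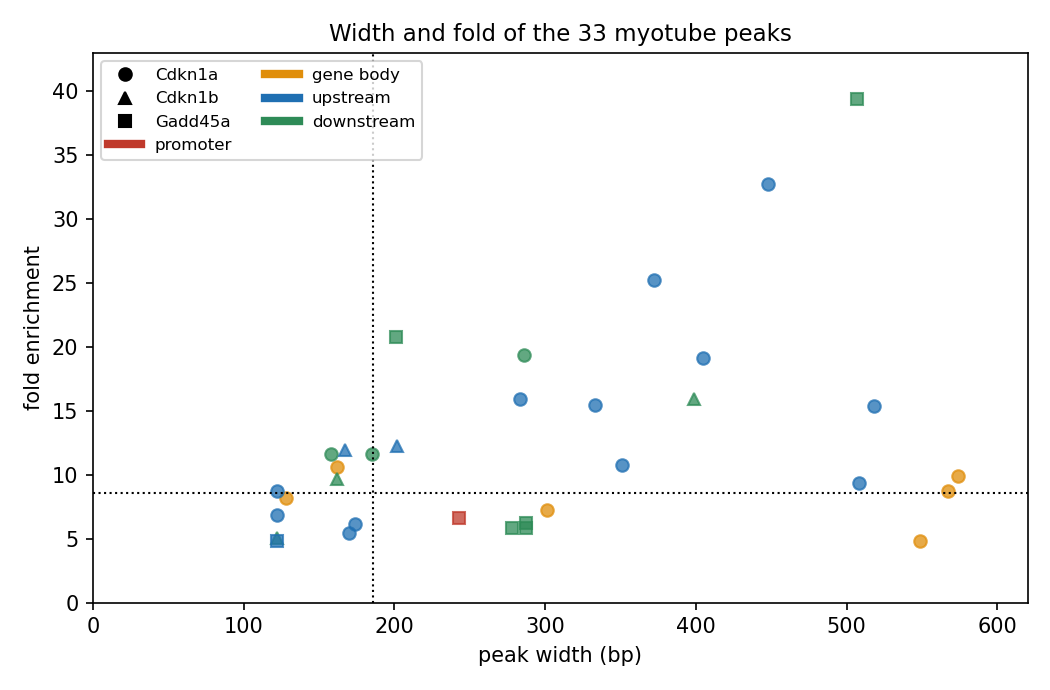
Fold enrichment against width in bp for the 33 myotube peaks (both axes linear), with the shape for the gene, the colour for the site and dotted lines at the list medians (186 bp and fold 8.59). The 3 widest peaks, at 549 to 574 bp, lie in the Cdkn1a gene body at folds of 4.83 to 9.91, whereas the peaks of fold 20 or more have widths of 201 to 507 bp.

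Peak number per length differed between the loci. The Cdkn1a window (109.8 kb) held 19.1 myotube peaks per 100 kb, 10.8 times the list mean of 1.775 (Poisson interval 6.67 to 16.5). Gadd45a held 6.83 per 100 kb, 3.85 times the mean (1.55 to 7.93). Cdkn1b held 4.76 per 100 kb, 2.68 times the mean (0.870 to 6.26), an interval that includes the mean. Cut into 25604 consecutive tiles of 100 kb, the genome had at least 1 myotube peak in 47.4% of tiles and at least 5 in 12.1%. At least 19 peaks, the whole number reached per 100 kb at Cdkn1a, were found in 0.527% of tiles. The corresponding shares were 8.93% for the 6 peaks of Gadd45a and 16.7% for the 4 of Cdkn1b. Tiles include gene-poor stretches and the windows are centred on genes, so the shares describe the list and are no test.

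**Figure D4:**
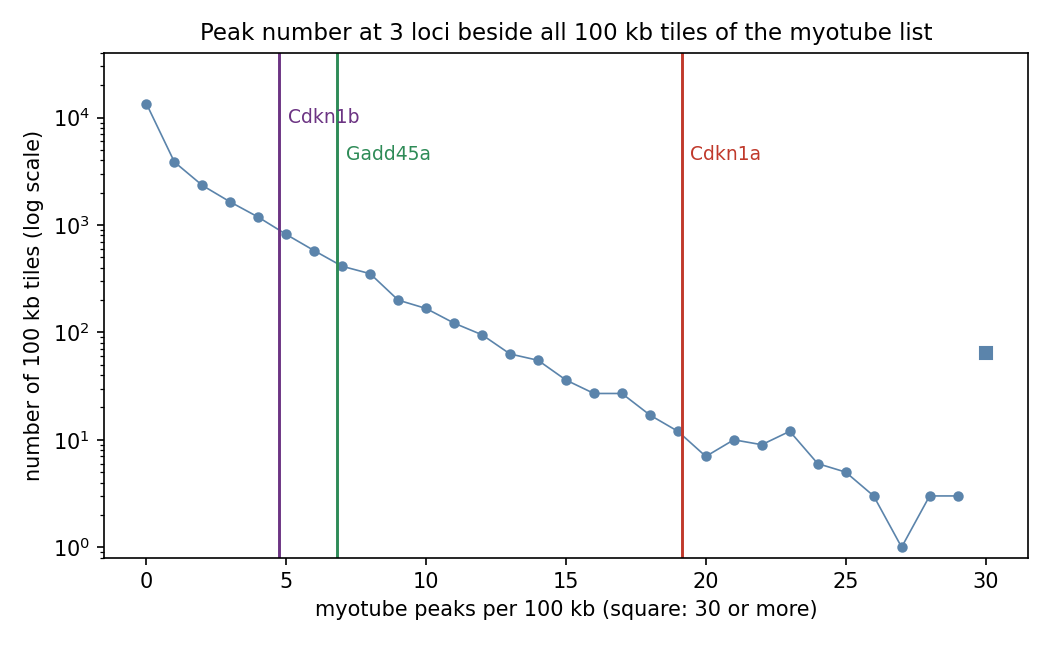
Number of 100 kb tiles (log axis) by the myotube peaks they hold, with all tiles of 30 or more peaks pooled in the square; the vertical lines mark the peaks per 100 kb at Cdkn1b (4.76), Gadd45a (6.83) and Cdkn1a (19.1). The Cdkn1a line falls in the sparse right tail, and the other two where tiles are still common.

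No myoblast peak lay at any of the 3 genes, and in a list of 501 peaks that count distinguishes little. The nearest myoblast peaks were 324.5 kb from Cdkn1b, 1012 kb from Cdkn1a and 17800 kb from Gadd45a. The myoblast list averaged 0.196 peaks per Mb, so the 317.4 kb of windows would hold 0.0621 peaks at its mean density, and 1.81% of 100 kb tiles held a myoblast peak. With the nearest myoblast peaks that far away, none of the 33 myotube sites could overlap one, and only 0.224% of all myotube peaks did. At its most frequent background of 0.44 reads, the weakest listed myoblast peak had a fold of 13.52 (6 reads). Lower folds were listed at higher background, such as 10.04 over 0.896 reads at the peak nearest Cdkn1b, so 13.52 is no fixed limit. The folds of 23 of the 33 myotube sites were below 13.52. The remaining 10 (7 at Cdkn1a, 2 at Gadd45a and 1 at Cdkn1b) were of a kind that made up 17.5% of myotube peaks without raised background. Of 7649 such peaks in the whole list, 26 (0.34%) overlapped a myoblast peak. The absence of the 10 from the myoblast list was therefore shared by nearly all myotube peaks of that strength. Lower FoxO3 occupancy at hour -24 and a weaker immunoprecipitation or shallower library cannot be told apart with 1 library per group.

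The 50 kb limit passed close to some sites. Just inside it were the Gadd45a peaks 47.0 kb (fold 39.39) and 49.3 kb (fold 5.8) past the gene end. Just outside were Cdkn1a peaks 51.3 kb before the start (fold 8.9) and 52.0 kb past the end (fold 17.18). Distance does not assign a distal peak to a gene. In RefSeq order the nearest coding genes are Srsf3 and Rab44 around Cdkn1a, with the non-coding gene Trp53cor1 between Srsf3 and Cdkn1a, and Gpr19 and Apold1 around Cdkn1b. Gng12 lies on the downstream side of Gadd45a, the side of its strongest site. The distal peaks were not placed in or outside these neighbours, because no mm9 annotation was used here.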

How the data were processed

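FoxO3 ChIP-seq peaks from 1 myoblast and 1 myotube library were used as deposited. Per the submitters' processing notes the tools include MACS2 2.1.0, and the build is mm9. For the aligner, any control library and the peak threshold, nothing is given in the sources used here. Each list is a narrowPeak table per the file headers, and in it the authors gave for each peak a fold enrichment (a linear ratio), −log10 p- and q-values, a score and a summit offset.

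From these, summits were assigned to genes, and the whole-number pileup that reproduces each deposited fold and p-value under a Poisson model was taken (tolerance 0.02 on the log10 scale). It was found for 33 of 33 sites, 501 myoblast and 45452 myotube peaks. On 2000 simulated peaks per list it was exact in 100% of cases, and pileups that were not whole passed in 2.7% (myoblast folds) and 0.7% (myotube folds). Total depth is unknown. Coordinates count from 1. Calculations used Python 3.11.15, pandas 2.3.3 and scipy 1.17.1.

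The genes, motifs and settings were chosen with earlier results of these data known. The text gives every promoter peak, the 3 distal peaks of highest fold per gene and any myoblast peak, and beyond that rule other sites chosen after their values were seen. With 1 library per group no test was made. Alternatives were other windows, promoter distances, overlap rules and q-value thresholds, and removal of raised background.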

Additional observations from a re-analysis of the deposited data

How the results depend on the processing

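With 1 library per condition no value has a replicate error, and few reads stand behind the weaker sites. Of 93 alternative values, 83 stayed within 1.5 times of the reported value or named the same peak, and 10 moved. All 37 alternatives for myoblast peaks gave 0 and are among the 83. A narrower window or stricter threshold cannot change a count of 0, so the 83 does not measure how stable the myotube counts are. Myotube peak counts moved at all 3 genes with a 25 kb window. A 25 kb window left 10 myotube peaks at Cdkn1a, 3 at Cdkn1b and 4 at Gadd45a, and a 100 kb window gave 27, 12 and 16. Density relative to the list at Cdkn1a was 10.8 times the mean with 50 kb and 7.25 times with 100 kb. A −log10 q-value of at least 10 left 11 peaks at Cdkn1a and 2 at Gadd45a, with 0 promoter peaks at Gadd45a. Promoter peaks at Cdkn1a numbered 3 within 5 kb of the first start, and 1 within 1 kb of either RefSeq start, a setting chosen after seeing the data. No paired analysis was possible because neither hour has a second library.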

Other observations

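Between 50 and 100 kb from the genes, outside the sites described above, lay 22 further myotube peaks: 9 around Gadd45a, 7 around Cdkn1b and 6 around Cdkn1a. The strongest was 65.2 kb upstream of Gadd45a, spanning 67052474 to 67053169 of chromosome 6. It had 98 reads and a fold of 36.99, more reads than any site within 50 kb of the 3 genes. Around Cdkn1b, 3 of the 7 exceeded the strongest site within 50 kb (15.95), with folds of 22.47 (90.2 kb upstream, 34 reads), 21.34 (73.9 kb past the gene end, 35 reads) and 18.17 (94.2 kb upstream, 47 reads). These are values only, and no gene was assigned to them.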
